A study of Mus musculus with 12 samples.

Results

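The genes described here are 32 genes of fibroblasts, pancreatic stellate cells, pericytes and the extracellular matrix, taken by name from a table of 46095 genes, and all 32 were present. They are 8 chains of interstitial collagens, 4 basement membrane genes, 3 small leucine-rich proteoglycans, 7 matrix glycoproteins with the cross-linking enzyme Lox counted among them, 5 stromal receptors and surface proteins, and 5 contractile, cytoskeletal and pericyte genes. RNA was sequenced from whole pancreas in 6 wild type libraries on C57BL/6J (WT 1 to 6) and 6 Axl-/-Mertk-/- libraries labelled AMKO (AMKO 1 to 6), all from mice at postnatal day 56. Every mouse, wild type included, had pancreatitis induced by caerulein, an analogue of cholecystokinin that overstimulates acinar cells, given as 10 hourly injections of 100 µg/kg, with tissue taken at 12 h. The sources used here do not give the strain background of AMKO, the nature of its alleles or the assignment of libraries to animals. The p-values therefore rest on the spread between these samples, which may be partly technical. No untreated pancreas was analysed here, so every value compares genotypes within pancreatitis.

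Pancreatic stellate cells are the main matrix-producing mesenchymal cells of the exocrine pancreas. They lie quiescent around acini, and after injury they proliferate, acquire smooth muscle actin and secrete interstitial collagens, which drives fibrosis when injury persists. Platelet-derived growth factor acts on them through PDGFRA and PDGFRB, and pericytes, the contractile cells on capillaries, share PDGFRB, desmin and NG2 (Cspg4) with them.

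Libraries held 10668637 to 15184371 counts. Levels are given in CPM, the usual count scaled to library size, after TMM scaling, a correction for differences in RNA composition. Genotypes were compared with edgeR's quasi-likelihood test, and a gene was called at a Benjamini-Hochberg adjusted p under 0.05 over the 13743 genes tested. A log2 fold change below 0 means a lower level in AMKO, and each comes with its standard error (SE). Axl, a targeted gene, lay between 44.4 and 77.1 CPM in wild type but only between 5.60 and 11.5 CPM in the AMKO libraries (-2.69 on the log2 scale, SE 0.18, adjusted p = 1.95e-06), so every library matched its genotype label for this gene. Mertk had a fitted value near 0 in whole-gene counts (-0.03, SE 0.30, adjusted p = 0.968), which do not check its disruption. Acinar markers summed to between 202326 and 379704 CPM, which matches the labelled tissue. Libraries differed in other cells within each genotype. WT 3, WT 6, AMKO 3 and AMKO 6 had the lowest summed leukocyte markers (125 to 178 CPM, against 245 to 590 CPM in the other 8), and WT 1 to 3 held almost no albumin (0.12 to 0.57 CPM, against 13.0 to 19.1 CPM elsewhere).

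Across the 32 genes, AMKO pancreas had mostly lower fitted levels, but few single genes passed the test. Of the 31 genes with enough counts, Postn and Pdgfrb fell in AMKO, none rose, and 29 did not pass. The share called, 6.45%, is near the 5.78% called over all genes tested (3.37% lower and 2.41% higher in AMKO), so the count of calls does not set these genes apart. At an unadjusted p under 0.05 there were 12 of 31, or 38.7%, against 21.9% of all genes. Fitted values were below 0 for 28 of 31, or 90.3%, against 50.3% of all genes, and the exceptions were Fn1, Des and Pdgfra. The median log2 fold change was -0.33, against -0.002 over all genes. The genes share cells of origin and move together, so these counts are not independent pieces of evidence. Lower fitted values were not limited to stromal genes. All 7 duct cell markers were below 0 (median -0.30), with Epcam and Spp1 called lower (adjusted p = 0.00851 and 0.0108), and the 7 summed to 1977 to 2624 CPM in wild type libraries against 1541 to 2226 CPM in AMKO. AMKO 1, high for many matrix genes, had the lowest duct sum. Fitted values were also below 0 for 11 of 12 endothelial markers (median -0.16). Other marker lists went both ways. Values were below 0 for 4 of 4 adipocyte and 5 of 6 neutrophil markers (medians -1.30 and -0.31). Only 3 of 13 acinar and 1 of 6 leukocyte markers were below 0 (medians 0.09 and 0.11). Below 0 were 0 of 10 macrophage, 0 of 8 mesothelial and 0 of 7 B and plasma cell markers (medians 0.44, 0.49 and 1.28). The macrophage marker Mrc1 and the acinar marker Ptf1a were called higher. The part of these cells in the matrix gene levels was not tested. In tissue RNA, fewer stromal cells and less RNA per stromal cell cannot be told apart. Groups overlapped for all 31 genes, whereas 3.54% of all genes did not overlap (2.3% with AMKO below and 1.24% with AMKO above). In every library the 32 genes took a small part of the counts, from 0.188% to 0.383% in wild type and from 0.130% to 0.362% in AMKO.

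**Figure D1:**
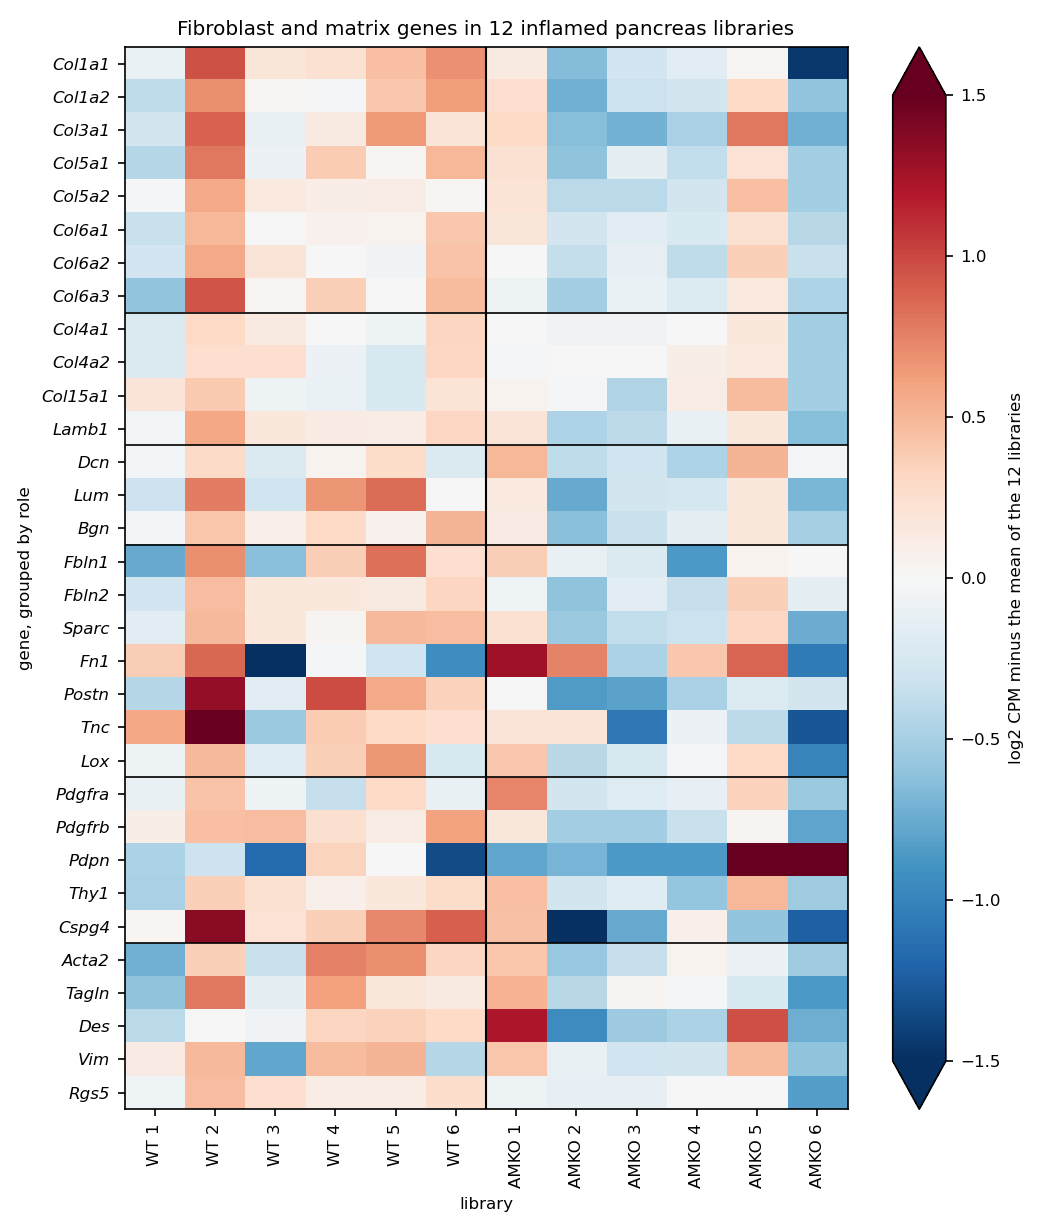
Log2 CPM of the 32 genes (rows, grouped by role with lines between groups) in the 12 libraries (columns), each row centred on its mean over the libraries; colours stop at 1.5 above and below. WT 2 is high and AMKO 6 low across most rows, AMKO 1 and AMKO 5 resemble wild type more than the other 4 AMKO libraries do, and Pdpn is high in AMKO 5 and AMKO 6 alone.

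**Figure D2:**
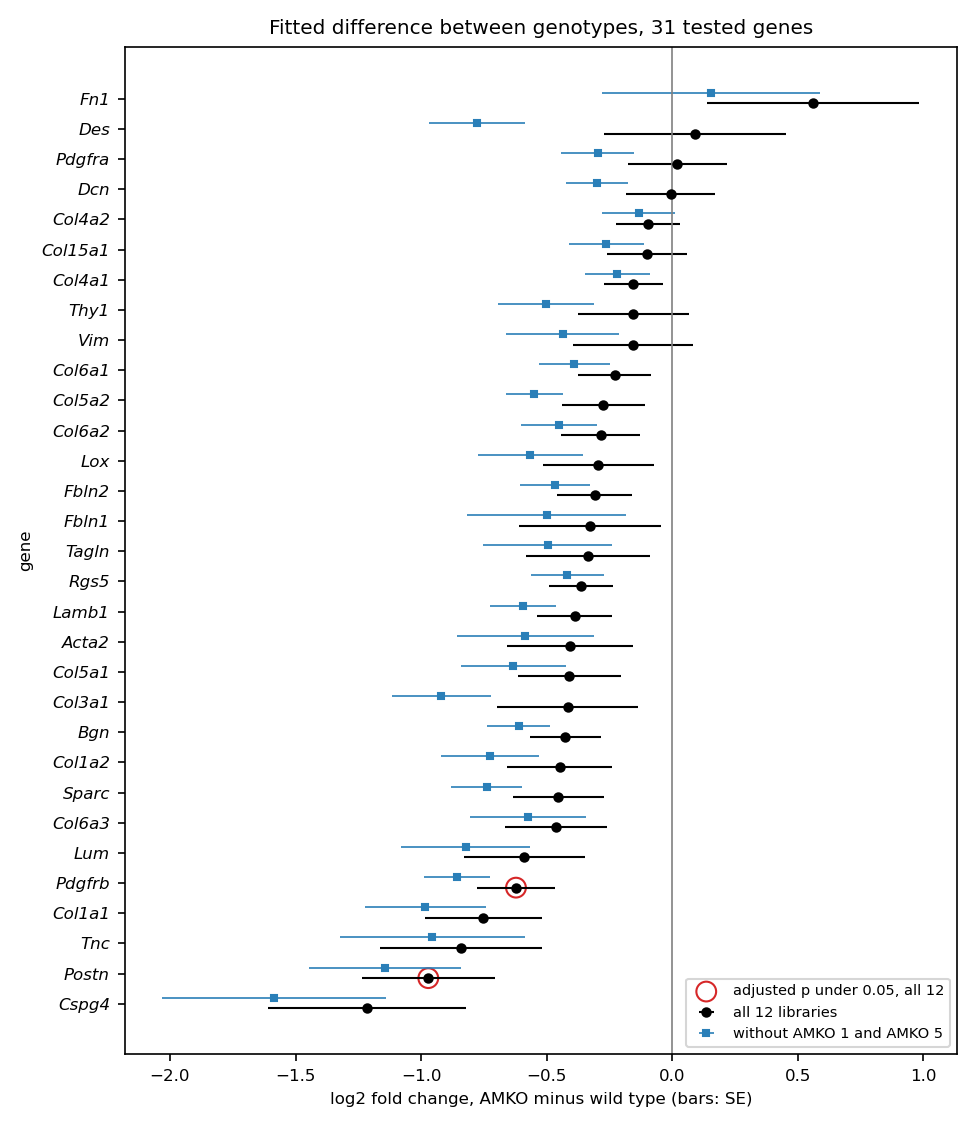
Log2 fold change (AMKO minus wild type, bars are SE) of the 31 tested genes, with all 12 libraries (black circles) and without AMKO 1 and AMKO 5 (blue squares). Red rings mark Postn and Pdgfrb, the genes called with all 12 libraries, and 28 black circles lie left of 0.

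Interstitial collagens give tissue its tensile strength, and their 8 genes had fitted values below 0, from -0.75 to -0.23 (median -0.41), with no call. Col1a1 encodes the major chain of type I collagen, the main product of activated stellate cells. It ranged from 55.5 to 115 CPM in wild type (median 75.2) and from 21.6 to 65.2 CPM in AMKO (median 50.7). AMKO 2, 3, 4 and 6 lay below every wild type library and AMKO 1 and AMKO 5 within the wild type range, and the difference did not pass (-0.75, SE 0.23, adjusted p = 0.0728). It passed without AMKO 1 (adjusted p = 0.0424), with DESeq2 (0.0185) and with limma voom (0.0250), and reached 0.158 without WT 2. Col1a2, the other chain of type I collagen, overlapped more widely, at 55.1 to 116 CPM and 43.5 to 87.8 CPM (-0.45, SE 0.21, adjusted p = 0.228). Col3a1, the chain of type III collagen in reticular fibres, was the most abundant of the 8 per kilobase of exon (34.9 CPM per kb in wild type and 26.1 in AMKO). It spread over 229 to 511 CPM in wild type and split the AMKO libraries, with 169 to 198 CPM in AMKO 2, 3, 4 and 6 against 341 in AMKO 1 and 482 in AMKO 5 (-0.42, SE 0.28, adjusted p = 0.413). The type V chains, which nucleate fibrils, followed the same order. Col5a2 lay at 31.4 to 37.0 CPM in those 4 AMKO libraries, below all wild type libraries (44.3 to 66.4 CPM), and at 51.7 and 61.4 CPM in AMKO 1 and AMKO 5 (-0.27, SE 0.16, adjusted p = 0.353). Col5a1 had adjusted p = 0.263. Type VI collagen forms beaded filaments around cells, and its 3 genes overlapped between genotypes, with log2 fold changes of -0.23 for Col6a1, -0.29 for Col6a2 and -0.46 for Col6a3 (adjusted p from 0.199 to 0.382). WT 2, the highest library for all 3, carried much of this. Without it the values were -0.14, -0.18 and -0.28, and those of Col3a1, Col5a1 and Col5a2 were -0.26, -0.26 and -0.17. Over the 31 tested genes, leaving out WT 2 moved 14 fitted values nearer to 0 by more than 1.5 times, Tnc (-0.52) and Tagln (-0.18) among them, and leaving out AMKO 6 moved 7.

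Fibrillar and filament collagens assemble from chains in fixed proportion, so the counts of chains of a trimer were also compared within each library, for 5 pairs chosen after the counts were seen. The ratio of Col1a1 to Col1a2 counts lay between 0.854 and 1.01 in wild type (median 0.953). In AMKO it lay between 0.456 and 0.892 (median 0.808), and 4 of 6 AMKO libraries were below the wild type range. The lowest, 0.456, was AMKO 6. The mean log2 ratio (± SD, n = 6) was -0.10 ± 0.11 for wild type against -0.45 ± 0.37 for AMKO, and the difference, -0.35, did not pass after adjustment over the 5 pairs (two-sided exact permutation p = 0.0173, adjusted p = 0.0866). Without AMKO 6 it was -0.21. The other pairs, Col4a1 to Col4a2, Col5a1 to Col5a2, Col6a1 to Col6a2 and Col6a1 to Col6a3, had adjusted exact permutation p from 0.303 to 0.589. Col4a1 to Col4a2 was the steadiest, at 1.52 to 1.85 in wild type and 1.55 to 1.68 in AMKO. These are the only members whose genes overlap each other, head to head by 22 bases on chromosome 8 in the GENCODE annotation of GRCm38. Col3a1 and Col5a2 lie 24614 bases apart on chromosome 1, Dcn and Lum 46984 bases apart on chromosome 10, and Col6a1 and Col6a2 85161 bases apart on chromosome 10.

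No basement membrane gene was called, and all 4 had fitted values below 0. Type IV collagen is the network-forming collagen under epithelium and around capillaries, and its genes Col4a1 and Col4a2 had the smallest and second smallest spread of log2 CPM between libraries of a genotype (SD 0.22 and 0.24) of all 32 genes. Col4a1 averaged 261 ± 38.5 CPM (SD, n = 6, here and below) over the wild type libraries against 234 ± 33.8 CPM over AMKO (-0.15, SE 0.12, adjusted p = 0.474). Col4a2 stood at 155 ± 26.8 and 145 ± 21.2 CPM (-0.10, SE 0.13, adjusted p = 0.702). AMKO 6 lay apart and below for both, at 171 and 104 CPM. Col15a1, a basement membrane collagen of capillaries and muscle, had a fitted value near 0 (-0.10, SE 0.16, adjusted p = 0.758), with AMKO 5 the highest of the 12 libraries at 43.9 CPM. Lamb1, the laminin beta 1 chain, had the largest fitted difference in the group, from 37.2 ± 5.89 to 28.4 ± 6.86 CPM (-0.39, SE 0.15, adjusted p = 0.146). Its AMKO 2, 3, 4 and 6 values, 20.6 to 29.5 CPM, were below the wild type minimum of 31.01 CPM.

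The small leucine-rich proteoglycans, which bind collagen fibrils and limit their thickness, had unlike fitted values, from -0.59 to -0.01, and no call. Dcn (decorin), second to Sparc among the 32 genes in wild type level per kilobase (40.5 CPM per kb), had nearly equal means, at 237 ± 37.2 and 236 ± 73.5 CPM (-0.01, SE 0.18, adjusted p = 0.991). The AMKO libraries were split. AMKO 1 and AMKO 5, at 326 and 327 CPM, exceeded every wild type library (198 to 282 CPM), and the other 4 lay at 167 to 228 CPM. Bgn (biglycan) lay at 59.4 to 86.6 CPM in wild type and 39.3 to 67.9 CPM in AMKO (-0.42, SE 0.14, adjusted p = 0.0946), with AMKO 2, 3, 4 and 6 below every wild type library. Lum (lumican) went from 15.5 ± 5.58 to 10.2 ± 2.79 CPM (-0.59, SE 0.24, adjusted p = 0.166), and its groups overlapped.

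Postn encodes periostin, a matricellular protein that is secreted by activated fibroblasts and promotes collagen cross-linking. Its gene lies on chromosome 3 (54361109 to 54391037, GRCm38, plus strand). It ranged from 15.6 to 52.6 CPM in wild type (median 28.9) and from 11.5 to 21.0 CPM in AMKO (median 16.1), and fell (-0.97, SE 0.27, adjusted p = 0.0460). All AMKO libraries lay below the wild type median, 3 of them below the lowest wild type library, and wild type was more spread than AMKO (SD 14.0 against 3.70 CPM). WT 2 and WT 4, at 52.6 and 41.3 CPM, stood highest. The call was lost in 9 of 12 fits without a single library (adjusted p up to 0.110), with total count scaling (0.0810) and when WT 1 to 3 were the only wild type (0.243), and held when WT 4 to 6 were (0.0310). Adjusted p was 0.157 without WT 3, WT 6, AMKO 3 and AMKO 6.

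As Postn is the called gene for which a promoter sequence was at hand, the 250 bases before its start in RefSeq (GRCm38.p6, chr3:54360857-54361106, plus strand) are shown, with the TATA-box motif TATAAA in capitals.
Postn upstream: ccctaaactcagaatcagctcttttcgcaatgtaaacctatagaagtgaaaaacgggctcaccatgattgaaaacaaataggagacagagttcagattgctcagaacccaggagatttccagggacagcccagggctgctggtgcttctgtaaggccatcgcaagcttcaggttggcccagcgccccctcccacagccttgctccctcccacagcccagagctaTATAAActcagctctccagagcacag
The motif begins 26 bases before the start. RefSeq lists another Postn start, whose window lacks it. Read in the direction of transcription, TATAAA occurs in 7.59% of the 32851 RefSeq windows of this length (12.4% on either strand). Among the 23 members with an entry, 4 had it, Postn, Col3a1, Tnc and Vim, and all 4 had it in that direction. The percentages count windows and the 4 of 23 counts genes. A gene can have several windows, as Postn has 2, so these shares cannot be compared. A match is a description of these letters only.

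The other matrix glycoproteins had fitted values on both sides of 0 and no call. Tnc (tenascin C), an anti-adhesive glycoprotein induced in wounds, lay at 10.3 to 43.4 CPM in wild type and 6.17 to 17.4 CPM in AMKO (-0.84, SE 0.32, adjusted p = 0.140). WT 2 stood apart at 43.4 CPM. Sparc (osteonectin), a collagen-binding protein with the highest wild type level per kilobase of the 32 (56.3 CPM per kb, 41.1 in AMKO), went from 213 ± 38.9 to 156 ± 47.1 CPM (-0.45, SE 0.18, adjusted p = 0.155). Again AMKO 2, 3, 4 and 6, at 106 to 142 CPM, were below every wild type library (158 to 248 CPM). Fbln1 and Fbln2, fibulins of elastic fibres and basement membranes, had log2 fold changes of -0.33 and -0.31 (adjusted p = 0.534 and 0.245). Lox, lysyl oxidase, which cross-links collagen and elastin, had -0.29 (SE 0.22, adjusted p = 0.466).

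Fn1 encodes fibronectin, an adhesive glycoprotein made by fibroblasts and by other cells, including macrophages and hepatocytes. It was the most variable of the 31 tested genes, with a pooled SD of 0.91 log2 CPM within genotypes. It ranged from 101 to 618 CPM in wild type (median 306) and from 163 to 820 CPM in AMKO (median 511). AMKO 1, the highest library, exceeded WT 3, the lowest, by 3.03 on the log2 scale, far more than the fitted difference between genotypes (0.56, SE 0.42, adjusted p = 0.469). The 4 lowest libraries were WT 3, AMKO 6, WT 6 and AMKO 3 (101 to 244 CPM), which are also the libraries with the fewest leukocyte marker counts. Vim was the only other tested member with the same 4 libraries lowest. The part of leukocytes in these levels was not tested.

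**Figure D3:**
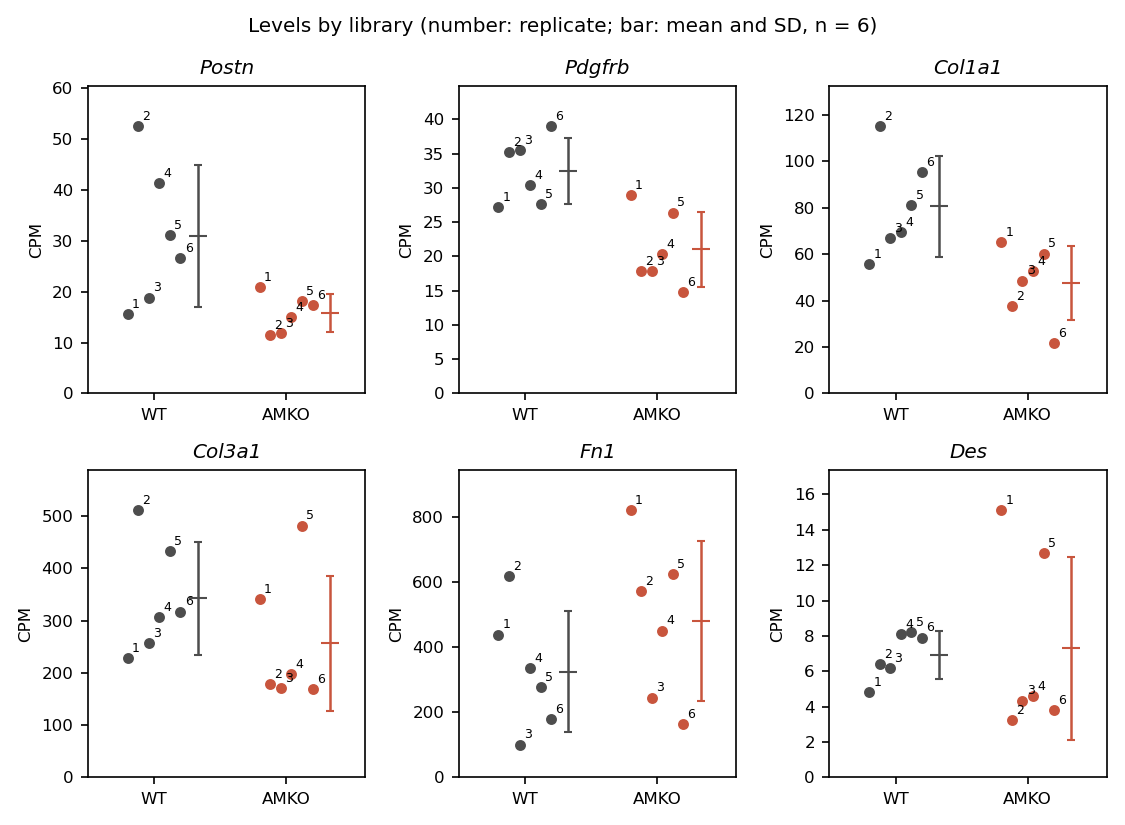
CPM of Postn, Pdgfrb, Col1a1, Col3a1, Fn1 and Des in each library (points, numbered by replicate; grey is wild type, red is AMKO), with the mean and SD (n = 6) to the right of each group. Postn and Pdgfrb are lower in AMKO with overlap, and 3 (Postn) and 5 (Pdgfrb) of the 6 AMKO libraries lie below every wild type library. AMKO 1 and AMKO 5 lie apart from the other AMKO libraries for Col3a1 and Des.

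Among the 4 tested receptors and surface proteins, 1 was called, the PDGF receptor Pdgfrb. Pdgfrb, the receptor of pericytes and activated stellate cells (chromosome 18, 61045150 to 61085061, GRCm38), ranged from 27.2 to 39.0 CPM in wild type (median 32.8) and from 14.8 to 28.9 CPM in AMKO (median 19.1). It fell (-0.62, SE 0.16, adjusted p = 0.0330), and 5 of 6 AMKO libraries lay below every wild type library, the exception being AMKO 1. The call was lost in 8 of 12 fits without a single library (adjusted p up to 0.0820), with total count scaling (0.109), and when the wild type group was cut to WT 4 to 6 (0.180) or to WT 1 to 3 (0.153). Without WT 3, WT 6, AMKO 3 and AMKO 6 its log2 fold change was -0.36 (adjusted p = 0.351). Pdgfra, the receptor that marks fibroblasts, lay at 43.6 to 74.4 CPM in wild type and 37.5 to 91.9 CPM among AMKO libraries, with nearly equal means (0.02, SE 0.20, adjusted p = 0.967), and AMKO 1 was the highest library of all. Whether the difference differs between the receptors was not tested.

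Cspg4, the NG2 proteoglycan of pericytes, had the largest fitted difference of the 31 genes but few counts, 3 to 38 per library. Wild type libraries held 0.99 to 2.697 CPM and AMKO libraries 0.24 to 1.36 CPM (-1.22, SE 0.40, adjusted p = 0.0861). Thy1, a surface glycoprotein of fibroblasts and lymphocytes, showed a small fitted difference (-0.16, SE 0.22, adjusted p = 0.728), and AMKO 1 and AMKO 5 were the highest of the 12 libraries at 7.46 and 7.70 CPM. Pdpn encodes podoplanin, a membrane glycoprotein of mesothelium, lymphatic endothelium and activated fibroblasts, and had too few counts for the main test. It was read with 98 counts in AMKO 5 and 71 in AMKO 6 (7.19 and 7.68 CPM) but with 3 to 13 counts in each of the other 10 libraries (0.20 to 0.97 CPM). No other member had AMKO 6 as its highest library. Summed mesothelial markers stood at 77.7 CPM in AMKO 5, the highest, and at 45.8 CPM in AMKO 6. They stood at 63.1 CPM in WT 2 and 60.5 CPM in AMKO 1, in which Pdpn was at 0.57 and 0.37 CPM. Which cells held the Pdpn RNA was not tested. Without a count filter Pdpn did not pass (adjusted p = 0.154).

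Contractile and pericyte genes were mostly at low levels and none was called. Acta2, smooth muscle actin and the usual mark of activated stellate cells, lay at 5.67 to 16.1 CPM in wild type and 6.36 to 12.6 CPM in AMKO (-0.41, SE 0.25, adjusted p = 0.368), and no AMKO library was below the wild type range. Tagln (transgelin) had -0.33 (SE 0.25, adjusted p = 0.455), and its counts are uncertain because it overlaps Gm48529 on the other strand by 1241 bases. Shorter overlaps of this kind touch Pdgfra (456 bases), Fn1 (292), Des (220) and Tnc (176), and the sources used here do not say whether strand was used in counting. Rgs5, a G protein signalling regulator of pericytes, was steadier, at 49.0 ± 6.14 and 38.0 ± 7.02 CPM (-0.36, SE 0.13, adjusted p = 0.109), with AMKO 6 far below the rest at 24.0 CPM. Vim, vimentin of mesenchymal cells and leukocytes, had -0.16 (SE 0.24, adjusted p = 0.747). Des (desmin), a filament protein of quiescent stellate cells, pericytes and muscle, had a fitted value near 0 (0.09, SE 0.36, adjusted p = 0.911) although no AMKO library lay within the wild type range. It lay at 4.81 to 8.22 CPM in wild type. In AMKO 2, 3, 4 and 6 it lay at 3.26 to 4.58 CPM, below all of these, and in AMKO 1 and AMKO 5 at 15.1 and 12.7 CPM, above all of these.

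The position of AMKO 1 and AMKO 5 was thus shared by most of the genes. They were the highest AMKO libraries for 24 of the 31 tested genes, the exceptions being Col4a2, Col15a1, Tnc, Cspg4, Acta2, Tagln and Rgs5. AMKO 1 lay within the wild type range for 25 genes, above it for 5 (Dcn, Fn1, Pdgfra, Thy1 and Des) and below it for Rgs5. AMKO 5 lay within it for 24, above it for 5 (Col15a1, Dcn, Fn1, Thy1 and Des) and below it for Pdgfrb and Cspg4. The remaining AMKO libraries fell below the wild type range for 18 genes in AMKO 2, 15 in AMKO 3, 14 in AMKO 4 and 23 in AMKO 6. The counts so far were not made over all genes tested, so they describe the libraries and do not set these genes apart. For 8 genes (Col1a1, Col3a1, Col5a2, Lamb1, Bgn, Sparc, Pdgfrb and Des) AMKO 2, 3, 4 and 6 were all below every wild type library, and for 0 all above. Over all genes tested, 6.22% had these 4 libraries below and 6.69% above. The 4 libraries were picked knowing that AMKO 1 and AMKO 5 were high for these genes, so the count is a description. Wild type was not uniform either. WT 2 was the highest of the 12 libraries for 16 genes, and WT 1 (median centred log2 CPM -0.21) sat beside AMKO 4 (-0.23) and far from AMKO 1 and AMKO 5 (0.21 each).

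AMKO 1 and AMKO 5 also differed from the other AMKO libraries in other cells. Their 7 summed B and plasma cell markers stood at 236 and 90.2 CPM, against 2.29 to 5.09 CPM in the other 4 AMKO libraries and 1.06 to 51.4 CPM in wild type. Macrophage markers summed to 1298 and 1451 CPM, against 421 to 792 CPM in the other 4 AMKO libraries and 248.8 to 759 CPM in wild type. Mesothelial markers summed to 60.5 and 77.7 CPM, against 18.7 to 45.8 CPM and 7.09 to 63.1 CPM. Cxcl13 is a B cell attractant made by stromal cells of lymphoid tissue. It stood at 450 and 323 CPM, against 3.49 to 13.0 CPM and 1.88 to 157 CPM. Cr2, listed with it, stood at 13.4 and 2.49 CPM, against 0 to 0.64 CPM and 0 to 0.55 CPM. Fcer2a, also listed with it, stood at 7.09 and 1.54 CPM, against 0 to 0.51 CPM and 0 to 0.56 CPM. Ccl19, Madcam1 and Clec4g were at most 0.29 CPM in every library. Ccl21a of lymph node stroma was listed at 0 in every library, so it cannot tell libraries apart. Adipocyte markers summed to 139 and 39.9 CPM, against 0.22 to 7.14 CPM in the other 4 AMKO libraries and 0.65 to 240 CPM in wild type. WT 2, the wild type library with the highest matrix levels, had the highest mesothelial sum of its genotype (63.1 CPM). Its adipocyte markers stood at 121 CPM, below WT 5 (240 CPM), and its B and plasma cell markers at 29.5 CPM. Acinar markers had their lowest sum in AMKO 1 (202326 CPM). Their highest was in AMKO 6 (379704 CPM), the lowest library for 15 of the 31 tested genes. AMKO 5 (287226 CPM) lay near AMKO 2 (288961 CPM). In wild type the acinar sum was lowest in WT 1 (221205 CPM), which was not high for matrix genes, followed by WT 2 (231732 CPM). The part of all these cells in the levels of matrix genes was not tested.

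**Figure D4:**
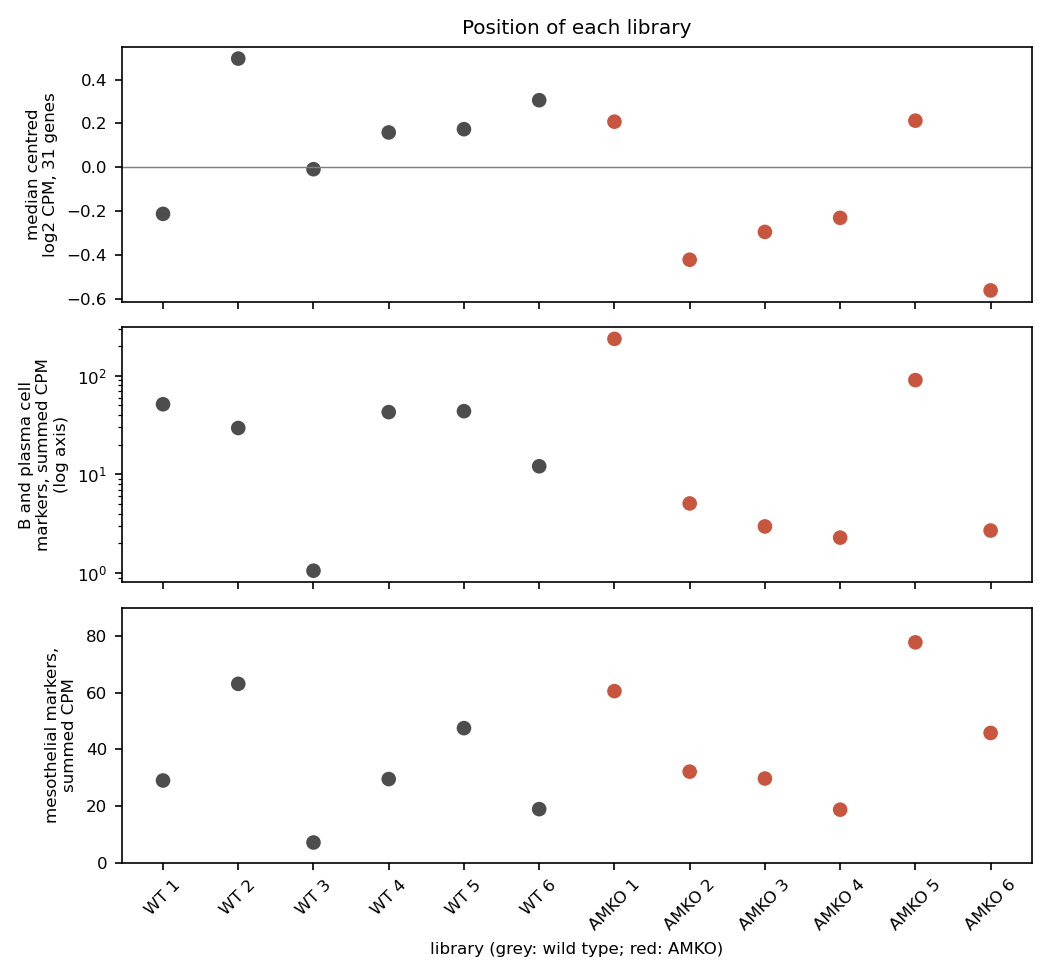
Top, the median over the 31 tested genes of log2 CPM centred on the 12 libraries; middle, summed CPM of 7 B and plasma cell markers on a log axis; bottom, summed CPM of 8 mesothelial markers (grey is wild type, red is AMKO). AMKO 1 and AMKO 5 sit at 0.21 in the top panel beside most wild type libraries, and are the highest of all libraries for the B and plasma cell markers.

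Without AMKO 1 and AMKO 5, 13 of 31 genes were called lower in AMKO and none higher, 41.9%, where 15.1% of all genes were called (7.12% lower and 8.03% higher). These were Postn, Pdgfrb, Col1a1, Col1a2, Col3a1, Col5a2, Lamb1, Lum, Bgn, Fbln2, Sparc, Cspg4 and Des, and the median log2 fold change was -0.56. Since both libraries are among the highest of AMKO for most of these genes, leaving them out lowers the AMKO levels by construction, and the count describes the other 10 libraries only. Pdgfrb had a log2 fold change of -0.86 (adjusted p = 0.00188) there, Sparc -0.74 (0.00556) and Col3a1 -0.92 (0.00971). Des turned from 0.09 to -0.78 (adjusted p = 0.0177). Fn1 stayed above 0 (0.16, adjusted p = 0.840).

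Of 120 tested genes in 8 lists of related matrix, collagen processing, integrin, PDGF and stromal genes, 8 fell and none rose, 6.67%, again near the 5.78% over all genes. Fitted values were below 0 for 90 of 120, or 75.0%, against 50.3% of all genes tested. As with the members, these counts are not independent pieces of evidence. Ctgf (also Ccn2), a matricellular growth factor induced by TGF-beta and mechanical tension, had the smallest p. It lay at 17.0 to 51.7 CPM in wild type (median 21.1) and 7.79 to 12.8 CPM in AMKO (median 9.67), and fell (-1.36, SE 0.24, adjusted p = 0.00599). Every AMKO library lay below every wild type library, AMKO 1 (9.81 CPM) and AMKO 5 (9.39 CPM) included, and the call held in all 12 fits without a single library (adjusted p up to 0.0190), against WT 4 to 6 (0.0286) and against WT 1 to 3 (0.00692). Without WT 3, WT 6, AMKO 3 and AMKO 6 it had adjusted p = 0.0547. WT 4 stood highest at 51.7 CPM.

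The other 7 called genes were nearer the threshold. Among 12 tested basement membrane genes, Agrn (agrin), a heparan sulphate proteoglycan, fell from 137 ± 22.7 to 99.1 ± 10.3 CPM (-0.47, SE 0.11, adjusted p = 0.0264). Nid1 (nidogen 1), which links laminin to type IV collagen, fell from 101 ± 18.8 to 70.6 ± 10.6 CPM (-0.51, SE 0.13, adjusted p = 0.0296). Among 17 integrins and matrix receptors, Itgb6 and Itgav fell (-0.69 and -0.35, adjusted p = 0.0253 and 0.0424), which together encode the epithelial integrin that activates latent TGF-beta. Of the 4 PDGF ligands Pdgfd, a ligand of PDGFRB, fell (-0.58, SE 0.15, adjusted p = 0.0360), while Pdgfb, the main pericyte-recruiting ligand, had -0.44 (adjusted p = 0.0803) and Pdgfa 0.32 (adjusted p = 0.0865). Among smooth muscle and pericyte genes 1 of 14 fell, Mcam (CD146), at -0.47 (adjusted p = 0.0356), and among other fibroblast and stellate genes 1 of 17, Serpinf1 (PEDF), at -0.67 (adjusted p = 0.0345). No call was made among 19 collagen processing enzymes, of which 17 had fitted values below 0, or among 12 other collagens. Of these collagens Col4a5, named after its values were seen, missed the threshold (-0.70, SE 0.19, adjusted p = 0.0501) although its groups did not overlap. Each of the 7 calls was lost in 3 to 9 of the 12 fits without a single library, with adjusted p up to 0.0948. With total count scaling Agrn and Pdgfd passed and the other 5 did not (adjusted p from 0.0712 to 0.152), and without WT 3, WT 6, AMKO 3 and AMKO 6 none of the 7 passed (0.0552 to 0.315). When AMKO was set against WT 4 to 6 alone 0 of the 7 passed, and against WT 1 to 3 Agrn did. Beside these, endothelial markers, which share the vessel wall with pericytes, held 2 calls among 12 tested genes, where 5.78% of all genes were called. The 2 were Kdr (-0.83, adjusted p = 0.00752) and Flt1 (-0.55, adjusted p = 0.0363). Pecam1 had a value near 0 (-0.02, adjusted p = 0.931). Summed, the endothelial markers ran from 274 to 393 CPM in wild type and from 217 to 324 CPM in AMKO, with AMKO 6 the lowest, and Cldn5 was listed at 0 in every library.

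**Figure D5:**
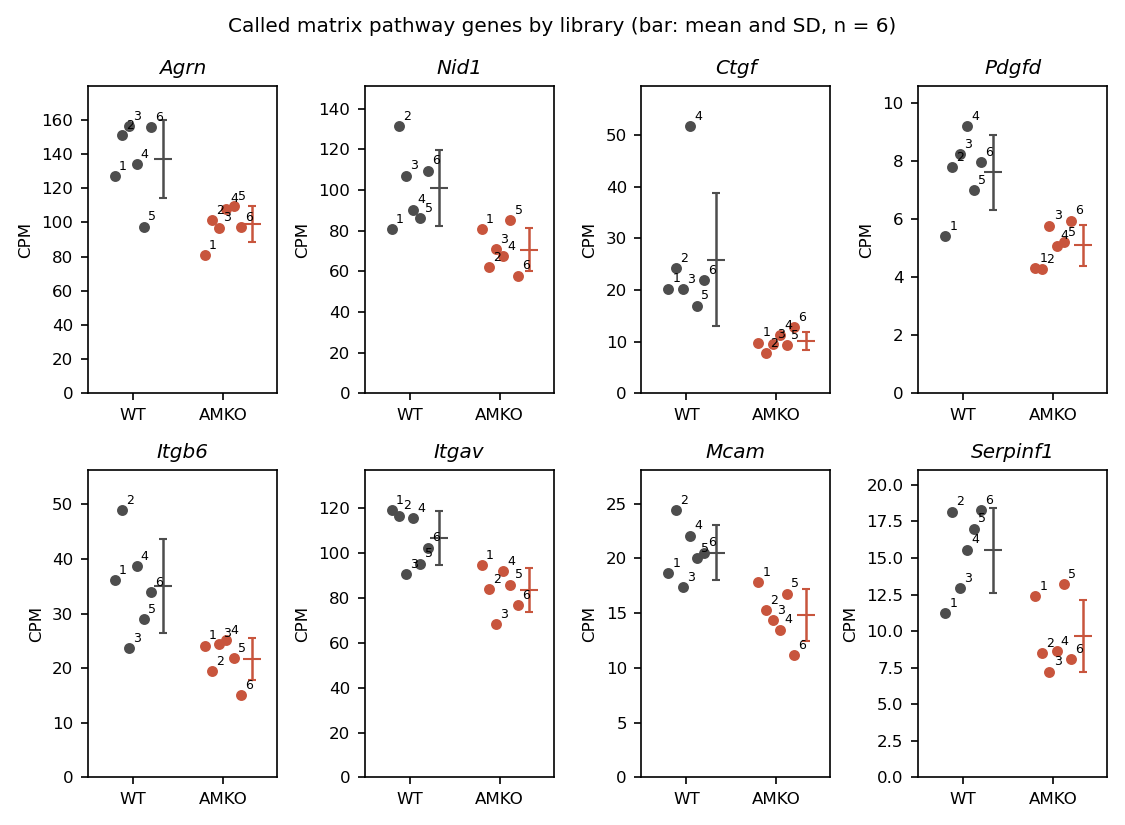
CPM of the 8 called genes of the related lists in each library (points, numbered by replicate; grey is wild type, red is AMKO), with mean and SD (n = 6). For Ctgf the highest AMKO library, at 12.8 CPM, is below the lowest wild type library, at 17.0 CPM, whereas the other 7 overlap.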

How the data were processed

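Per the labels' protocols, RNA was extracted from pancreas with Trizol. The submitters' processing notes name HISAT2 2.0.4 and the mm10 build. The sources used here give no read counter, annotation or strand setting. The authors deposited raw counts per gene in a table of 46095 genes and 12 columns, each matched to a sample by title. Levels are CPM computed from these deposited counts with TMM-scaled library sizes, and log2 CPM uses a prior count of 2. After filterByExpr, the quasi-likelihood F test of edgeR 4.0.16, run in R 4.3.3, compared the genotypes with genotype as the only term, adjusted over all genes tested. Of genes simulated from these libraries for AMKO against wild type (13588 tested), 70.1% of 97 changed 2-fold and 99% of 96 changed 4-fold were recovered. Of the 174 calls in this simulation 11 were false. Each gene was drawn independently and no change smaller than 2-fold was simulated. The recovery therefore does not apply to small differences or to genes that move together. Ratios of collagen chains were compared by two-sided exact permutation (SciPy 1.17.1).

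The members and lists were chosen with earlier results of these data known, so they are not independent support. The genes named are all members, and up to 4 called genes of each related list. Pdgfa, Pdgfb and Col4a5 were named although they were not called. Marker lists give summed CPM and some single genes, among them Kdr and Flt1, the called endothelial markers. Through RefSeq synonyms, 3 list symbols were matched. Positions, exon lengths and overlaps come from GENCODE M21 (GRCm38), and CPM per kilobase divides by the union of exons. No pair of libraries within a genotype looked like a repeat deposit (chi-square over its degrees of freedom from 9.93 to 73.33), so each counted once. Other scalings, filters, DESeq2 1.42.0, limma 3.58.1 voom with quality weights, the replicate number as a block and fits without libraries were the alternatives.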

Additional observations from a re-analysis of the deposited data

Results flagged for a closer look

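Of 74 groups examined (32 genes and 5 chain ratios in each genotype), 5 values lay far from the other 5 libraries of their genotype by Dixon's gap criterion, which chance alone meets in about 1 in 20 groups. AMKO 6 gave 3 of them. It was low for Rgs5 (4.59 log2 CPM, against 5.30 to 5.42 in the other AMKO libraries), for Col4a1 (7.42, against 7.88 to 8.09) and for Col4a2 (6.71, against 7.19 to 7.37). WT 2 was high for Col5a2 (6.06 log2 CPM, against 5.48 to 5.64), and WT 1 was low for Thy1 (1.99, against 2.55 to 2.83).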

How the results depend on the processing

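All alternatives but those on chain ratios, which were added after seeing the data, were planned, but with earlier results of these data known. The fits without AMKO 1 and AMKO 5 and without the 4 leukocyte-poor libraries leave out libraries known to stand apart. Their counts are descriptions. The 794 genes called became 456 with total count scaling, 1295 with DESeq2 (645 higher and 650 lower, against 331 and 463), 1664 with limma voom (809 and 855), 2115 without AMKO 1 and AMKO 5, 167 against WT 4 to 6, 231 against WT 1 to 3 and 98 without WT 3, WT 6, AMKO 3 and AMKO 6, and ranged from 411 to 1140 without single libraries. The 2 members called became 0 with total count scaling, 3 with DESeq2 (Col1a1 added), 7 with voom (Col1a1, Bgn, Cspg4, Lamb1 and Sparc added), 13 without AMKO 1 and AMKO 5, 1 against WT 4 to 6, 0 against WT 1 to 3, 0 without the 4 leukocyte-poor libraries, and 0 to 4 without single libraries. The 8 related genes called became 3 with total count scaling, 5 without a count filter, 18 with DESeq2, 17 with voom, 27 without AMKO 1 and AMKO 5, 1 against WT 4 to 6, 3 against WT 1 to 3, 0 without the 4 leukocyte-poor libraries, and 1 to 12 without single libraries. Calls over all genes also fell with total count scaling and rose with DESeq2 and voom. The shares of members and related genes were not compared with the all-gene shares of these settings. The cause of these differences was not tested, and neither was the part of the smaller number of samples in the fits without libraries.

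The median member log2 fold change stayed between -0.43 and -0.23 without single libraries. Signs turned for small differences. Without the 4 leukocyte-poor libraries Col4a1 had 0.012, Col4a2 0.11, Col15a1 0.076 and Thy1 0.051. Against WT 4 to 6 Col15a1 had 0.021 and Des -0.12, and the Col6a1 to Col6a2 ratio -0.017. Against WT 1 to 3 Dcn had 0.0056, Pdgfra -0.044 and Acta2 0.030, and the Col5a1 to Col5a2 ratio 0.10. Dcn had 0.0094 with DESeq2's size factors in edgeR, 0.0051 with TMM without the 50 most counted genes, 0.0038 without a filter and 0.0092 with DESeq2. Pdgfra and Des had -0.12 and -0.42 with voom, and -0.30 and -0.78 without AMKO 1 and AMKO 5. Without single libraries Dcn ran from -0.11 to 0.076, Pdgfra from -0.15 to 0.12, Des from -0.25 to 0.24, and the log2 ratio Col5a1 to Col5a2 from -0.18 to 0.0023.

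Replicate numbers did not pair the samples (correlations of deviations from -0.160 to 0.346 over 6 pairs, and 3 of 12 libraries correlated best with their own number). With the replicate number as a block, 910 genes and 1 member (Tnc, adjusted p = 0.0176) were called, Pdgfrb and Postn had adjusted p = 0.0614 and 0.0769, and Pdgfra and Des had -0.022 and -0.15. Depth limited Cspg4 and Pdpn, read with as few as 3 counts.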
